A study of Rattus norvegicus with 17 samples.

Results

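The genes described here are 10 members of transforming growth factor beta (TGF-beta) signalling: the ligands Tgfb1, Tgfb2 and Tgfb3, the receptors Tgfbr1, Tgfbr2 and Tgfbr3, the matrix gene Tgfbi, and Id1, Id2 and Id3. They were read in cultured fetal rat gubernaculum with and without insulin-like 3 (Insl3). Members were chosen by name, and every probe set that the platform annotation assigns to one of them and to no other gene was taken. This gave 13 of the 31099 probe sets on the array, covering 9 of the 10 genes, and 11 of the 13 passed the filter on low values and were tested. Tgfbr2 had no probe set assigned to it alone in the annotation used here and is not analysed. The 2 probe sets that were not tested, a second one of Tgfbr1 and a second one of Tgfbr3, lay at or near the lowest value on the arrays, 2.11 on the log2 scale.

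The gubernaculum is the fetal ligament whose outgrowth steers the testis towards the scrotum, and Insl3 is the fetal Leydig cell hormone that acts on it through the receptor Rxfp2. The tissue came from male fetuses of Long Evans rats at gestational day 17, and each replicate pooled 2 bulbs of gubernaculum. All cultures spent 24 h in hormone-free medium, with serum stripped by charcoal and an insulin, transferrin and selenium supplement. They then spent another 24 h without Insl3 (control, n = 6), with 10 nM Insl3 (n = 3) or with 100 nM Insl3 (n = 6). A further 2 replicates at 10 nM, numbers 4 and 5, were set aside by the submitters and enter no comparison here. Replicates are labelled as biological, and the tests measure the spread between these separate cultures.

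TGF-beta ligands are secreted as latent complexes that are stored in the matrix and must be released before they bind. The active ligand brings type I and type II receptors together, and the type I receptor phosphorylates Smad2 and Smad3, which enter the nucleus with Smad4. Tgfbi encodes a secreted matrix protein named for its induction by TGF-beta. Id proteins are helix-loop-helix proteins without a DNA-binding region that hold E proteins away from DNA, and their genes are direct targets of the Smads of the bone morphogenetic protein (BMP) branch, Smad1 and Smad5. In mesenchyme these signals are known for their part in matrix production, growth and differentiation.

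The promoters of the members whose levels the results turn on are printed for reference, each as the 250 bases before the gene's start in RefSeq on the rat assembly GRCr8, 5′ to 3′ on the strand of the gene. All 10 members were found in that promoter table. Capitals mark any match to the motifs searched on both strands. These were GGCGCC and GGAGCC, known as BMP Smad elements, GTCTAGAC, a pair of Smad boxes, TGACGTCA and its contained part TGACG, known as cyclic AMP elements, the E-boxes CACGTG and CAGCTG, and TATAAA. The stretches are chr17:7990114-7990363 on the minus strand for Tgfbi, chr13:100792686-100792935 on the minus strand for Tgfb2, chr3:161671314-161671563 on the plus strand for Id1, chr6:47470996-47471245 on the minus strand for Id2 and chr5:153656041-153656290 on the plus strand for Id3.
Tgfbi: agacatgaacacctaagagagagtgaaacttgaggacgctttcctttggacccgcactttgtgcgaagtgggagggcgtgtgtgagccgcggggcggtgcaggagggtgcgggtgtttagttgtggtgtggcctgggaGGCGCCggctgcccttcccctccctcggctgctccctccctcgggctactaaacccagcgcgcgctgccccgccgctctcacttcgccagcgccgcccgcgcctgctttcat
Tgfb2: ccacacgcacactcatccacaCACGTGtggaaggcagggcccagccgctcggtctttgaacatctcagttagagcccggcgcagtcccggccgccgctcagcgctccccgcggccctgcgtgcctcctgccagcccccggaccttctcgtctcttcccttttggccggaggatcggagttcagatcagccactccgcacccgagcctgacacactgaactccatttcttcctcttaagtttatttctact
Id1: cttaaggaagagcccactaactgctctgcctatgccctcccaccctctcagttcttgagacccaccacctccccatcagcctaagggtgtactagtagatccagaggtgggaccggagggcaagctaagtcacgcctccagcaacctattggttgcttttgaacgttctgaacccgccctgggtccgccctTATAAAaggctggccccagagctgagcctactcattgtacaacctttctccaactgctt
Id2: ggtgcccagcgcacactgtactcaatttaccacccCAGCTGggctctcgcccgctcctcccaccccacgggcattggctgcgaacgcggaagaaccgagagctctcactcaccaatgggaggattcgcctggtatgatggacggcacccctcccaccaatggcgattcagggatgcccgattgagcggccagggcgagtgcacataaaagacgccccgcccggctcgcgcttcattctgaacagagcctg
Id3: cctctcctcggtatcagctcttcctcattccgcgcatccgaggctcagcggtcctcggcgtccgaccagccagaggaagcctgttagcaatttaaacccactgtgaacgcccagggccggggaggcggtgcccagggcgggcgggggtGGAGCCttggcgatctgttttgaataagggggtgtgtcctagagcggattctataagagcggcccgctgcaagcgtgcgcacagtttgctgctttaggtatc
The Tgfbi stretch holds GGCGCC, which is in 8.70% of the 33469 rat promoters of that length, and the Id3 stretch holds GGAGCC, which is in 23.0%. The Id2 stretch holds CAGCTG, found in 12.0%, the Tgfb2 stretch holds CACGTG, found in 5.59%, and the Id1 stretch holds TATAAA, found in 12.9%. Each of the 5 stretches therefore holds 1 of these short words, each a different one, and a match is a description of the letters only. The pair of Smad boxes GTCTAGAC, found in 0.173% of promoters, was in none of the 10 member stretches.

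Signals are the deposited GCRMA expression values on a log2 scale, corrected for background and normalized between arrays, so a difference of 1 is a 2-fold difference in signal. The arrays correlated with each other at 0.978 to 0.996 over the tested probe sets. A probe set is said to have risen or fallen only where limma's adjusted p, over all 18938 tested probe sets of the comparison, was below 0.05. Within the control and 100 nM groups the arrays fell into an unlabelled division, replicates 1, 2 and 6 against 3, 4 and 5, which was drawn from these same expression values. Values within each side are given beside the main results. The 10 nM arrays were placed on a side by replicate number alone, which is an assumption. Skeletal muscle markers (8 of 10 tested) averaged 13.32 to 13.49 in control arrays, 13.35 to 13.44 at 10 nM and 13.11 to 13.69 at 100 nM, so their ranges overlapped. Mesenchyme markers (9 of 12 tested) averaged 12.02 to 12.25, 12.19 to 12.23 and 12.01 to 12.40 in the same order, while the Insl3 receptor gene Rxfp2 had no probe set in the annotation used here and Tcf21 lay near the lowest value. Erythroid markers fell in 6 of 8 tested genes at 100 nM, with means per array of 7.68 to 9.94 in control, 7.54 to 8.95 at 10 nM and 5.56 to 8.01 at 100 nM. In control the sides of the division did not overlap on them. Replicates 1, 2 and 6 averaged 7.68, 7.74 and 8.50, and replicates 3, 4 and 5 averaged 9.48, 9.94 and 9.55. At 100 nM the sides overlapped, at 5.56, 5.93 and 6.82 against 8.01, 6.92 and 6.42. In whole tissue, fewer cells of a type and less RNA per cell cannot be told apart.

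Of the 9 member genes, each read by its probe set of highest mean signal, 1 rose and none fell at 100 nM Insl3 against control. The gene was Tgfbi, and 1 of 9 is 11.1%, near the 12.1% of all 10665 tested genes that were called in this comparison (8.15% higher and 3.98% lower). At 10 nM against control 1 rose, again Tgfbi, and 1 fell, Id2, which is 22.2% against 8.67% of all genes (5.54% higher and 3.13% lower). Between 100 and 10 nM no member gene was called by limma at an adjusted p below 0.05, and 0.778% of all genes were. Counted as probe sets, 1 of 11 was called at 100 nM, 4 of 11 at 10 nM (1 higher and 3 lower, on 3 genes) and 1 of 11 between the doses, beside 10.9%, 10.6% and 1.43% of all tested probe sets. At an unadjusted p below 0.05, limma marked 8, 6 and 4 of the 11 member probe sets in the 3 comparisons in that order, beside 26.0%, 23.8% and 12.3% of all tested probe sets. The median log2 change over the 9 genes was -0.01 at 100 nM and -0.04 at 10 nM against control, beside 0.02 and 0.06 over all tested genes. The count at 100 nM was 2 without control replicate 1, 3, 5 or 6 or without 100 nM replicate 1 or 5, and the count at 10 nM was 1 without 10 nM replicate 3. Within replicates 3, 4 and 5 limma called 3 member genes at 100 nM and 1 at 10 nM, and within replicates 1, 2 and 6 it called 0 at either dose, with 3 at 100 nM and 2 at 10 nM at an unadjusted p below 0.05. Over all tested probe sets, 8.93% and 3.98% were called at 100 and 10 nM within replicates 3, 4 and 5, and 1.06% and 2.95% within replicates 1, 2 and 6, against 10.9% and 10.6% in all 15 arrays, so calls were fewer across the whole array. Within replicates 3, 4 and 5 the 10 nM group is 1 array, whose spread is taken from the other groups. Both comparisons with control use the same 6 control arrays.

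**Figure D1:**
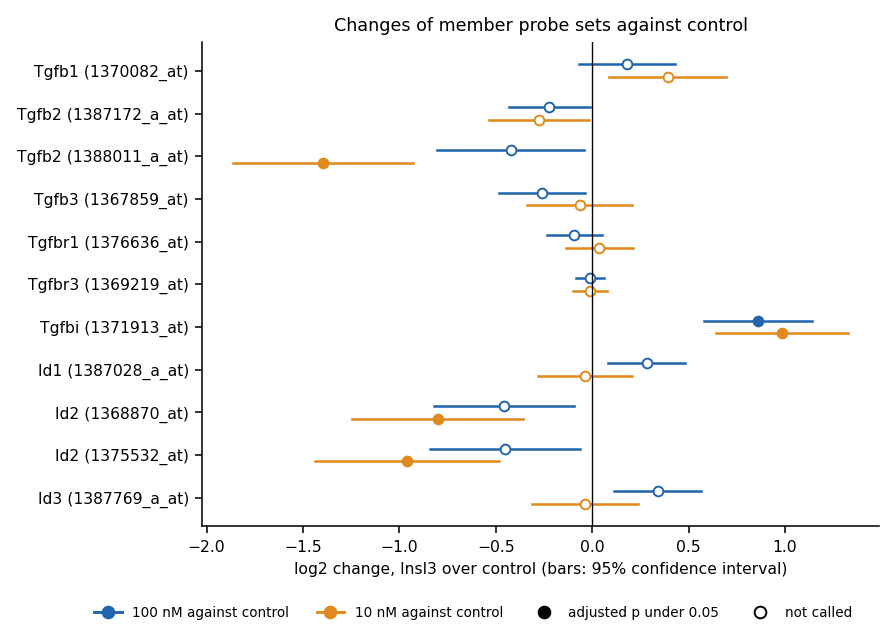
Log2 change with its 95% confidence interval for each tested member probe set, for 100 nM and for 10 nM Insl3 against control; filled points passed the test. Tgfbi is the only gene with a filled point at both doses, at 0.86 and 0.99, and the second Tgfb2 probe set lies furthest to the left, at -1.40 at 10 nM.

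Among the ligands, Tgfb2 gave different answers on its pair of probe sets: 1 fell at 10 nM and the other was not called. The probe set 1387172_a_at, which has the higher signal and stands for the gene, had a lowest, median and highest value of 10.25, 10.60 and 10.80 in control, values of 10.31, 10.38 and 10.22 at 10 nM, and 10.18, 10.29 and 10.69 at 100 nM. All 9 Insl3 arrays lay within or just below the span of the controls. The log2 change was -0.22 ± 0.10 (SE) at 100 nM against control (limma adjusted p = 0.174) and -0.27 ± 0.12 at 10 nM (adjusted p = 0.185), so neither passed.

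The second Tgfb2 probe set, 1388011_a_at, read 9.23, 9.27 and 9.74 (lowest, median and highest) in control, 8.06, 8.06 and 7.76 at 10 nM, and 8.31, 9.03 and 9.54 at 100 nM. The 10 nM arrays lay below every other array, and the 100 nM arrays reached across the span of the controls and below it. It fell at 10 nM, averaging 7.96 ± 0.17 against 9.36 ± 0.19 in control (SD), a log2 change of -1.40 ± 0.22 or 2.63-fold lower (limma adjusted p = 0.0012), and kept this call without any 1 array. At 100 nM the change against control was -0.42 ± 0.18 (limma adjusted p = 0.148). The direct comparison gave a value 0.97 ± 0.22 higher at 100 than at 10 nM (limma adjusted p = 0.0445), but that call was kept in only 2 of 15 fits that each left out 1 array, those without 100 nM replicate 4 or 5.

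The gap between the Tgfb2 probe sets on the same array was 1.22 ± 0.28 log2 units in control, 2.34 ± 0.11 at 10 nM and 1.42 ± 0.40 at 100 nM (SD). The Tgfb2 signal of these arrays therefore depends on which probe set is read. Of 3880 tested probe sets that do not stand for their gene, 5.80% were called lower at 100 nM and 13.6% at 10 nM, beside 4.39% and 5.70% of all tested probe sets. Within replicates 1, 2 and 6 the change of 1388011_a_at at 10 nM was -1.22 (limma adjusted p = 0.0062), and within replicates 3, 4 and 5, where a single array is at 10 nM, it was -1.67 and not called (adjusted p = 0.138).

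**Figure D2:**
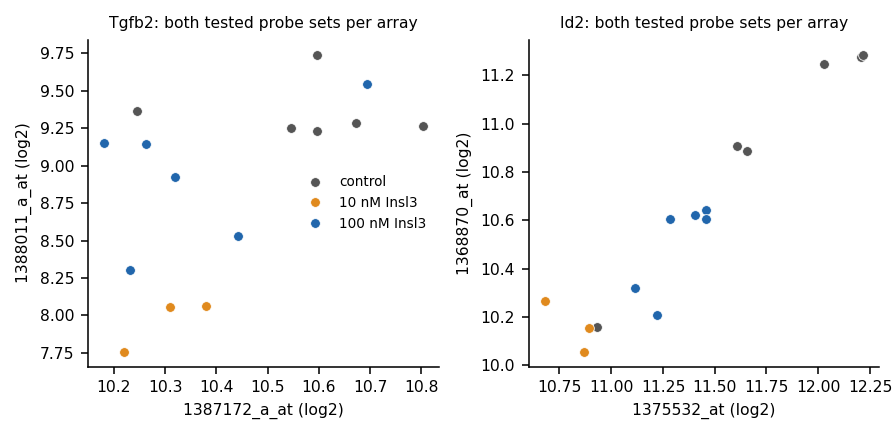
Log2 signal of each array for the genes with a second tested probe set, Tgfb2 and Id2, with the probe set standing for the gene on one axis and the other on the second axis, coloured by dose. The 3 arrays at 10 nM stand below the others on the second Tgfb2 probe set, at 7.76 to 8.06, while their values on the first, 10.22 to 10.38, lie among the 100 nM arrays.

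Tgfb3 had a lowest, median and highest value of 9.75, 9.93 and 10.09 in control, values of 9.72, 9.95 and 9.89 at 10 nM, and 9.44, 9.59 and 10.11 at 100 nM. At 100 nM 5 of the 6 arrays lay below every control, and replicate 5 lay above them all. Its log2 change at 100 nM against control was -0.26 ± 0.10 (limma adjusted p = 0.132), and without 100 nM replicate 5 it was -0.35 (adjusted p = 0.0140). At 10 nM it was -0.07 ± 0.13 (limma adjusted p = 0.804). Tgfb1, the ligand most studied in fibrosis and immune regulation, was read near the low end of the scale. It had a lowest, median and highest value of 3.80, 4.37 and 4.44 in control, values of 4.71, 4.71 and 4.44 at 10 nM, and 4.17, 4.44 and 4.49 at 100 nM, and 7 of the 15 arrays shared 1 value, 4.44. Its log2 change was 0.18 ± 0.12 at 100 nM (limma adjusted p = 0.352) and 0.39 ± 0.14 at 10 nM (adjusted p = 0.101) against control.

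Among the receptors, Tgfbr1, the type I receptor kinase, was read far above the lowest value on the arrays, and its groups overlapped with control. Its probe set 1376636_at had a lowest, median and highest value of 12.50, 12.81 and 12.93 in control, values of 12.80, 12.81 and 12.83 at 10 nM, and 12.56, 12.71 and 12.74 at 100 nM. The 100 and 10 nM arrays did not overlap, but both lay within the span of the controls. The log2 change was -0.09 ± 0.07 at 100 nM (limma adjusted p = 0.405, 95% confidence interval -0.24 to 0.05) and 0.04 ± 0.08 at 10 nM (adjusted p = 0.832, interval -0.14 to 0.21), both against control. Tgfbr3, or betaglycan, the co-receptor that presents TGF-beta 2, sat at 2.46 in 13 of 15 arrays, so these arrays give no measure of how it responds. The ligand arm and the type I receptor thus had no probe set standing for its gene called at either dose.

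**Figure D3:**
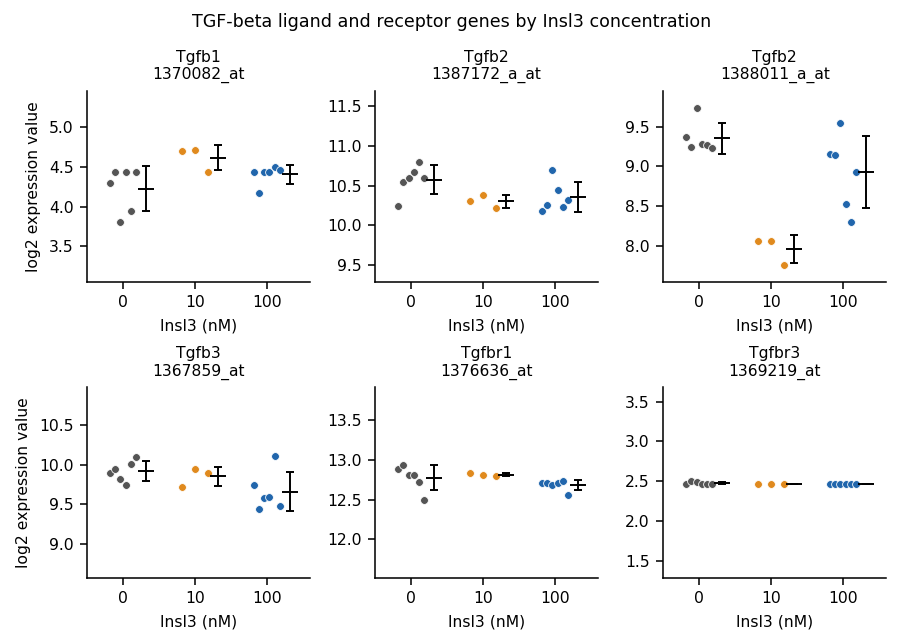
Log2 signal of every array, grouped as control, 10 nM and 100 nM Insl3, for the probe sets of the ligands and receptors, with group means and SDs. Tgfb2 1388011_a_at is the panel in which the 10 nM arrays, at 7.76 to 8.06, lie apart from both other groups.

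Tgfbi, which encodes a secreted protein that binds collagen and integrins, was the member that rose at both doses. Its probe set 1371913_at had a lowest, median and highest value of 12.88, 13.07 and 13.72 in control, values of 14.17, 14.13 and 14.10 at 10 nM, and 13.74, 14.07 and 14.28 at 100 nM. Every Insl3 array used in the tests lay above every control, although the highest control, replicate 6, lay just below the lowest 100 nM array. The other 5 controls lay at or below 13.13. The 2 arrays at 10 nM that the submitters set aside, at 13.70 and 13.43, lay within the span of the controls.

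Tgfbi averaged 14.01 ± 0.22 at 100 nM against 13.15 ± 0.29 in control (SD, n = 6 each), a log2 change of 0.86 ± 0.13 or 1.81-fold (limma adjusted p = 0.0010). At 10 nM it averaged 14.13 ± 0.03 (n = 3), which was 0.99 ± 0.16 above control or 1.98-fold (limma adjusted p = 0.0015). Both calls were kept in all 15 fits that each left out 1 array. The doses were not called different: 100 nM minus 10 nM was -0.13 ± 0.16 (limma adjusted p = 0.834), with a 95% confidence interval of -0.47 to 0.22.

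Within replicates 3, 4 and 5 alone Tgfbi was 1.06 higher at 100 nM than in control (limma adjusted p = 0.0224), and within replicates 1, 2 and 6 it was 0.66 higher and not called (adjusted p = 0.164). At 10 nM it was 1.11 higher in replicates 3, 4 and 5, where a single array is at 10 nM (limma adjusted p = 0.0632), and 0.85 higher in replicates 1, 2 and 6 (adjusted p = 0.117). Macrophages are among the cells known to express Tgfbi. Of 10 tested leukocyte and macrophage markers, 4 fell at 100 nM and none rose, and their mean per array was 9.84 to 10.15 in control, 9.51 to 10.12 at 10 nM and 9.30 to 9.96 at 100 nM. Of all tested genes, 3.98% were called lower at 100 nM. The part of macrophages in the Tgfbi values was not tested.

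**Figure D4:**
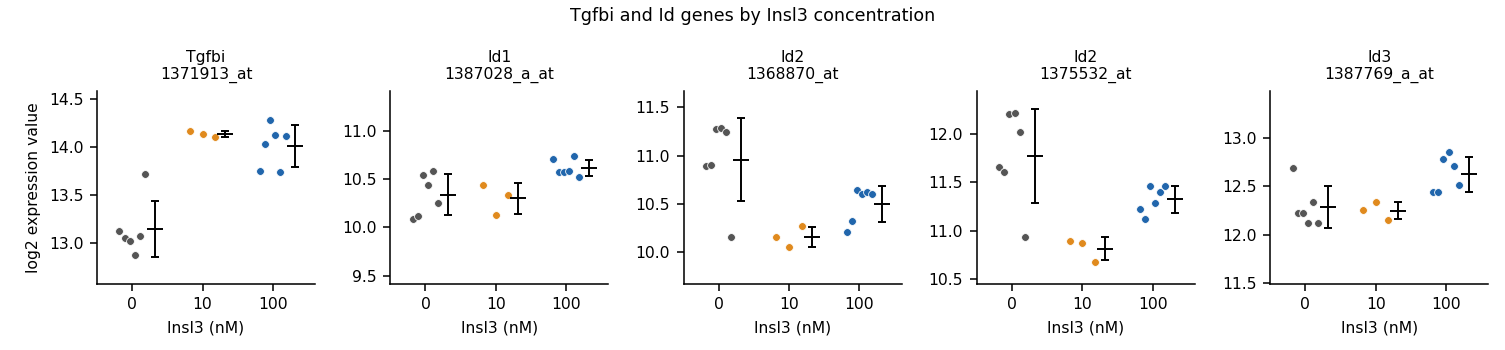
Log2 signal of every array, grouped as control, 10 nM and 100 nM Insl3, for the probe sets of Tgfbi, Id1, Id2 and Id3, with group means and SDs. All 9 Insl3 arrays of Tgfbi lie above all 6 controls, Id2 is lowest at 10 nM, and Id1 and Id3 have their highest means at 100 nM.

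The Id genes did not move as a group. Id2 fell at 10 nM, while Id1 and Id3 had their highest signal at 100 nM without passing the test. On its probe set 1375532_at, Id2 had a lowest, median and highest value of 10.93, 11.84 and 12.22 in control, values of 10.90, 10.87 and 10.68 at 10 nM, and 11.12, 11.34 and 11.46 at 100 nM. The 10 nM arrays lay below all others, and control replicate 6, at 10.93, was the only control close to them.

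At 10 nM Id2 averaged 10.81 ± 0.12 against 11.77 ± 0.49 in control (SD), a log2 change of -0.96 ± 0.22 or 1.95-fold lower (limma adjusted p = 0.0124). Its second probe set, 1368870_at, read 10.16 ± 0.11 at 10 nM and 10.96 ± 0.43 in control, a change of -0.80 ± 0.21 (limma adjusted p = 0.0225). Both Id2 probe sets therefore fell at 10 nM. The first lost its call without 10 nM replicate 3 (limma adjusted p = 0.0722), and the second lost it without any 1 of the 3 arrays at 10 nM (adjusted p = 0.0645 to 0.0940). Within replicates 3, 4 and 5 the change of the first was -1.47 (limma adjusted p = 0.0124), and the second had an adjusted p of 0.0070, but this fit holds a single array at 10 nM, assumed to vary like the other groups. Within replicates 1, 2 and 6 they were -0.52 and -0.55 and did not pass (adjusted p = 0.378 and 0.388).

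At 100 nM the Id2 changes against control were -0.45 ± 0.18 and -0.46 ± 0.17 and did not pass (limma adjusted p = 0.132 and 0.0998). They depended on control replicate 6: without it the changes were -0.62 on both probe sets and passed (limma adjusted p = 0.0056 and 0.0028). With the erythroid mean per array as a covariate they were -0.02 and -0.00, while the first probe set at 10 nM stayed at -0.87. The covariate itself differed by group, averaging 8.82 in control, 8.38 at 10 nM and 6.61 at 100 nM. With it, the share of all tested probe sets called went from 10.9% to 3.62% at 100 nM and from 10.6% to 10.3% at 10 nM. This fit therefore cannot tell erythroid signal and the 100 nM dose apart. The part of the erythroid signal in the Id2 values was not tested. Within replicates 3, 4 and 5 the Id2 changes at 100 nM against control were -0.77 and -0.65. Within replicates 1, 2 and 6 they were -0.13 and -0.27. Id2 was 0.51 ± 0.22 higher at 100 than at 10 nM, with no overlap between the arrays, and this was not called (limma adjusted p = 0.363).

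Id1 had a lowest, median and highest value of 10.09, 10.35 and 10.58 in control, values of 10.44, 10.13 and 10.34 at 10 nM, and 10.52, 10.58 and 10.74 at 100 nM. All 100 nM arrays lay above all 10 nM arrays, and 3 of the 6 lay above every control. The log2 change at 100 nM was 0.28 ± 0.09 against control (limma adjusted p = 0.0670) and 0.32 ± 0.11 against 10 nM (adjusted p = 0.222). It passed against control without control replicate 3 (limma adjusted p = 0.0499) or 5 (adjusted p = 0.0403), and with the division of replicates as a term (adjusted p = 0.0344). Within replicates 1, 2 and 6 the change of Id1 at 100 nM was 0.45 and did not pass (limma adjusted p = 0.109). Within replicates 3, 4 and 5 it was 0.12. With the erythroid mean as a covariate the change was 0.51 (limma adjusted p = 0.0452), and the part of the erythroid signal was not tested. As given for Id2, that covariate differed between control and 100 nM, so the fit cannot tell them apart.

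Id3 had a lowest, median and highest value of 12.12, 12.22 and 12.69 in control, values of 12.25, 12.33 and 12.15 at 10 nM, and 12.44, 12.61 and 12.86 at 100 nM. As for Id1, the 100 nM arrays stood above all 10 nM arrays, and a single control, replicate 1 at 12.69, lay among them. The log2 change at 100 nM was 0.34 ± 0.11 against control (limma adjusted p = 0.0542) and 0.38 ± 0.13 against 10 nM (adjusted p = 0.201). Without control replicate 1 the change against control was 0.42 and passed (limma adjusted p = 0.0100), as it did without 100 nM replicate 1 (adjusted p = 0.0419) and within replicates 3, 4 and 5 (0.56, adjusted p = 0.0203). Within replicates 1, 2 and 6 the 100 nM change of Id3 was only 0.12 and did not pass (limma adjusted p = 0.733). At 10 nM against control the changes of Id1 and Id3 were both -0.04 (limma adjusted p = 0.885 and 0.898).

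Endothelial cells are known to express Id1 and Id3, and part of the endothelial list was higher under Insl3. Of the 6 endothelial genes tested of 10 listed, Kdr and Cldn5 rose at both doses and the other 4 were not called. The mean of the 6 per array was 6.55 to 6.82 in control, 6.86 to 7.21 at 10 nM and 7.01 to 7.66 at 100 nM, so the controls lay below every Insl3 array and the doses overlapped. Flt1, Tek and Vwf lay near the lowest value and were not tested, and Cdh5 had no probe set in the annotation used here. Schwann cell and neuron markers (3 of 7 tested) showed the same separation, at 7.51 to 7.93 in control, 8.01 to 8.87 at 10 nM and 8.06 to 9.16 at 100 nM, with Ngfr higher at both doses and Uchl1 at 100 nM. Sox10 and Tubb3 lay near the lowest value. Smooth muscle markers (6 of 6 tested) averaged 8.83 to 9.37, 9.39 to 9.58 and 8.88 to 9.67 in the same order, with 1 lower at 100 nM and 1 higher and 2 lower at 10 nM. Mesothelium and epithelium markers (5 of 7 tested) averaged 5.36 to 7.70, 6.49 to 6.86 and 5.77 to 6.85. The part of any of these cells in the Id values, and in those of Tgfbi, was not tested.

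The wider pathway was read through 85 listed genes, of which 76 were tested. At 100 nM against control 7 rose and 5 fell, 15.8% against 12.1% of all genes, and at 10 nM 6 rose and 6 fell, 15.8% against 8.67%. Between the doses 1 was higher and 1 lower at 100 nM, 2.63% against 0.778%. These counts moved with single arrays: at 100 nM 7 were called without control replicate 4 or 5 or 100 nM replicate 6, and at 10 nM 3 were called without 10 nM replicate 3, 5 without replicate 2 and 7 without replicate 1 or without control replicate 3 or 5. Between the doses the count ran between 0 and 5 when 1 array was left out. Within replicates 3, 4 and 5 alone 11 were called at 100 nM and 4 at 10 nM, and within replicates 1, 2 and 6 alone 1 at each dose. Calls over all tested probe sets fell in these fits too. At 10 nM they went from 10.6% to 5.42%, 7.32% and 6.64% without 10 nM replicate 3, 2 or 1. At 100 nM they went from 10.9% to 7.66%, 8.20% and 8.19% without control replicate 4 or 5 or 100 nM replicate 6. The genes named next kept their calls without any 1 array unless lost calls are stated. For these genes, values at 10 nM are not given within replicates 3, 4 and 5, which hold 1 array at that dose.

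Of 14 tested genes that store or release latent ligand, 1 rose and 1 fell at 100 nM, and 3 rose and 1 fell at 10 nM. Called shares were 14.3% and 28.6%, beside 12.1% and 8.67% of all tested genes. Fbn2, a fibrillin of the microfibrils that hold latent TGF-beta, averaged 11.71 ± 0.51 at 100 nM against 10.74 ± 0.35 in control (SD), a log2 change of 0.96 ± 0.23 (limma adjusted p = 0.0152). The change was 0.94 within replicates 1, 2 and 6 and 0.98 within replicates 3, 4 and 5, and passed in neither (limma adjusted p = 0.165 and 0.179). At 10 nM Fbn2 was 0.18 above control and not called (limma adjusted p = 0.739). Itgav, the alpha subunit of integrins that release latent TGF-beta, was 0.33 ± 0.07 higher at 10 nM than in control (limma adjusted p = 0.0068), while its other probe sets, at 0.40 and 0.21, were not called. At 100 nM its change was -0.03 (limma adjusted p = 0.800). Itgav was 0.36 lower at 100 than at 10 nM (limma adjusted p = 0.0267, lost in 5 of 15 fits that each left out 1 array), and Fbn2 was not called between the doses (adjusted p = 0.221). Within replicates 1, 2 and 6 the 10 nM change of Itgav was 0.38 and not called (limma adjusted p = 0.126). The remaining called genes were Dcn, lower at both doses, and Ltbp4 and Lrrc32, higher at 10 nM, and each lost its call in 5 to 11 such fits.

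Of 9 tested co-receptors and receptors of related ligands, limma called none at 100 nM, with 2 at an unadjusted p below 0.05, and 2 fell at 10 nM. Over all tested genes 12.1% were called at 100 nM, and 8.67%, against 22.2% here, at 10 nM. Of all tested probe sets, 26.0% had limma's unadjusted p below 0.05 at 100 nM. Bmpr1a, a type I receptor for BMPs, averaged 9.92 ± 0.10 at 10 nM against 10.77 ± 0.23 in control (SD), a log2 change of -0.85 ± 0.17 (limma adjusted p = 0.0057). Bmpr2, the BMP type II receptor, was 1.14 lower at 10 nM, at 8.41 ± 0.32 against 9.55 ± 0.25 in control (limma adjusted p = 0.0068, and 0.0565 without 10 nM replicate 3). Within replicates 1, 2 and 6 the 10 nM changes were -0.81 for Bmpr1a and -1.01 for Bmpr2 (limma adjusted p = 0.0853 and 0.0365). At 100 nM the changes against control were -0.32 for Bmpr1a and -0.27 for Bmpr2 (limma adjusted p = 0.158 and 0.399).

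Of the 8 Smads, all tested, 1 fell at 100 nM, and 1 rose and 1 fell at 10 nM. The called shares were 12.5% and 25%, beside 12.1% and 8.67% of all tested genes. At limma's unadjusted p below 0.05 there were 6 at 100 nM and 3 at 10 nM. The shares of all tested probe sets at that limit were 26.0% and 23.8%. Smad1, a transducer of BMP signals, was 0.22 lower at 100 nM than in control (limma adjusted p = 0.0165) and 0.26 lower at 10 nM (adjusted p = 0.0216, lost without any 1 of the 3 arrays at 10 nM). At 100 nM the change was -0.18 within replicates 1, 2 and 6 and -0.27 within replicates 3, 4 and 5, and passed in neither (limma adjusted p = 0.337 and 0.0738). Its second probe set was 0.43 lower at 100 nM and 1.10 lower at 10 nM. Smad5 disagreed between its probe sets at 10 nM: the one standing for the gene was 0.42 higher (limma adjusted p = 0.0471, lost in 11 of 15 fits that each left out 1 array) and another was 0.89 lower (adjusted p = 0.0197). Smad2, Smad3 and Smad4, which carry the TGF-beta signal, were not called: the changes at 100 nM were 0.17, 0.20 and 0.04 (limma adjusted p = 0.153, 0.0830 and 0.605).

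Of 17 tested regulators of Smads, 2 rose and 2 fell at 100 nM and none was called by limma at 10 nM, where 6 had an unadjusted p below 0.05. The share called at 100 nM was 23.5%, beside 12.1% of all tested genes. At 10 nM 8.67% of all tested genes were called. Of all tested probe sets, 23.8% had limma's unadjusted p below 0.05 at 10 nM. Probe sets not standing for their gene were lower at 10 nM for Crebbp, at -1.80 and -1.35 (limma adjusted p = 0.0071 and 0.0099). The same held for Smurf2, at -1.17 (limma adjusted p = 0.0293). Further Crebbp probe sets, at -1.45 and 0.38, were not called. Of all tested probe sets not standing for their gene, 13.6% were called lower at 10 nM. Pmepa1, a TGF-beta-induced membrane protein that binds Smad2 and Smad3, averaged 12.26 ± 0.07 at 100 nM against 11.66 ± 0.22 in control (SD), a log2 change of 0.60 ± 0.12 with no overlap between the groups (limma adjusted p = 0.0054). The change was 0.75 within replicates 3, 4 and 5 (limma adjusted p = 0.0147) and 0.46 within replicates 1, 2 and 6, where it did not pass (adjusted p = 0.235). Tgif2 rose, and Nedd4l and Usp15 fell, at 100 nM, and each lost its call in 5 or 6 of 15 fits that each left out 1 array. At 10 nM the change of Pmepa1 was 0.43 (limma adjusted p = 0.0740). The inhibitory Smad7 was 0.35 higher at 100 nM and was not called (limma adjusted p = 0.187).

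Of 19 tested genes known to respond to TGF-beta, 2 rose and none fell at 100 nM, and 2 rose and 1 fell at 10 nM. Called shares were 10.5% and 15.8%, beside 12.1% and 8.67% of all tested genes. Timp1, an inhibitor of matrix metalloproteinases, was 0.55 higher at 100 nM than in control (limma adjusted p = 0.0147), and did not pass within replicates 1, 2 and 6 or within replicates 3, 4 and 5 (adjusted p = 0.171 and 0.0590). At 10 nM Timp1 rose and Tagln fell, calls lost in 12 and 6 of 15 fits that each left out 1 array. Cdkn1a and Lox were lower at 10 nM only on probe sets that do not stand for the gene. Their changes were -1.78 and -0.77 (limma adjusted p = 0.0195 and 0.0058). Such probe sets of Col1a1, Col1a2, Tgm2 and Tsc22d1 were not called. Bhlhe40, a helix-loop-helix repressor, was 2.18 ± 0.27 higher at 100 nM and 1.65 ± 0.33 higher at 10 nM (limma adjusted p = 0.0002 and 0.0053). Within replicates 1, 2 and 6 its changes were 2.39 and 1.91 and did not pass (limma adjusted p = 0.0507 and 0.0836). Ccn2, among the best known TGF-beta-responsive genes, was -0.32 at 100 nM and 0.16 at 10 nM (limma adjusted p = 0.596 and 0.860). Ccn1, also well known to respond, was -0.92 ± 1.08 at 100 nM and -2.01 ± 1.32 at 10 nM (limma adjusted p = 0.637 and 0.394). The responsive list thus held large changes beside genes that were not called.

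Of 9 tested helix-loop-helix partners of the Id proteins and their relatives, 2 rose and 1 fell at 100 nM and 1 fell at 10 nM. Called shares were 33.3% and 11.1%, beside 12.1% and 8.67% of all tested genes. Twist2, a repressor known from connective tissue and dermis, had the largest change of the 76 genes at 100 nM, at 7.78 ± 0.81 against 4.95 ± 0.13 in control (SD), a log2 change of 2.83 ± 0.31 (limma adjusted p = 6.93e-05). Within replicates 3, 4 and 5 it passed as well (limma adjusted p = 0.0046), and within replicates 1, 2 and 6 it was 2.57 higher and not called (adjusted p = 0.107). It was also 1.76 higher at 100 than at 10 nM (limma adjusted p = 0.0400), a call lost in 11 of 15 fits that each left out 1 array. Tcf3, an E protein, rose by 0.46 and the muscle regulator Myod1 fell by 0.32 at 100 nM (limma adjusted p = 0.0312 and 0.0238), calls lost in 7 and 2 such fits. Tcf4, another E protein that Id proteins bind, was 0.38 lower at 10 nM than in control, at 13.05 ± 0.15 against 13.43 ± 0.09 (limma adjusted p = 0.0100, 0.0803 without 10 nM replicate 3, and 0.0817 within replicates 1, 2 and 6). Id4, the remaining Id gene, was not called, with changes of -0.08 at 100 nM and -0.37 at 10 nM (limma adjusted p = 0.860 and 0.476). Twist1 and Tcf12 were called only on probe sets that do not stand for the gene. That of Twist1 averaged 8.24 ± 0.50 at 100 nM against 7.04 ± 0.39 in control (SD), without overlap (limma adjusted p = 0.0046). That of Tcf12 changed by -0.70 at 10 nM against control (limma adjusted p = 0.0064). It was 0.71 higher at 100 than at 10 nM (adjusted p = 0.0355). No fits without 1 array are given for these probe sets.

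**Figure D5:**
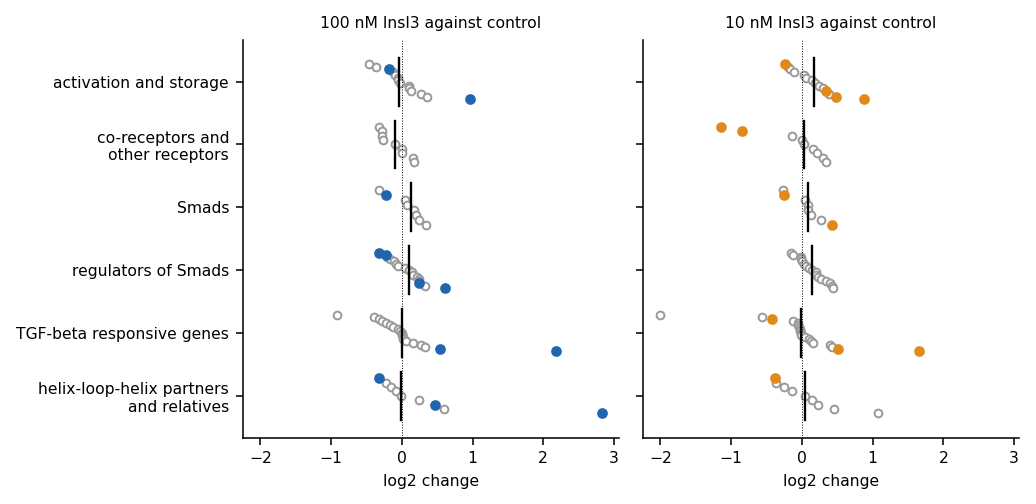
Log2 change of each tested gene of the 6 wider pathway lists, at 100 nM and at 10 nM Insl3 against control, with filled points for genes that passed the test and vertical bars at each list's median. Twist2, at 2.83 at 100 nM, Bhlhe40, at 2.18 and 1.65, and Bmpr2, at -1.14 at 10 nM, lie apart from most of the 76 genes, and the open point furthest to the left is Ccn1, at -0.92 and -2.01, whose arrays scatter widely.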

How the data were processed

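Total RNA of gubernaculum cultures was labelled (150 ng input) and hybridised to Affymetrix arrays, 1 per replicate. The authors deposited 1 log2 value for each probe set and array, computed with GCRMA per the submitters' processing notes. The GCRMA version and the base of the logarithm are not given in the sources used here, and base 2 was taken because GCRMA writes that scale. Values were used as deposited. Of 31099 probe sets, 20832 carried 1 gene in the platform annotation, and 57 manufacturer's controls were left out. Probe sets above 2.285, the 40th percentile of all values, in at least 3 of 15 arrays were tested (18938). Precision is limited by how many arrays there are and, near the lowest values, by background.

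A single limma 3.58.1 model over the 3 groups was fitted in R 4.3.3 with lmFit and eBayes, without trend or robust estimation, 2-sided, with Benjamini-Hochberg adjustment over all tested probe sets of a comparison and a threshold of 0.05. Errors of changes are moderated standard errors and errors of means are SDs. The 2 arrays at 10 nM that the submitters set aside for a principal component analysis and a low cRNA yield were left out. Where a gene had several probe sets, it was read by the one of highest mean signal. The fit was tested on simulated data with known changes. Members, the 6 pathway lists, the 8 marker lists, the motifs and the alternatives were chosen with earlier results of these data known. By rule, every single-gene probe set of a member is described, and any called gene of the pathway lists may be named. Those given in full, and the few named that were not called, were chosen after their values were seen. Alternatives covered normalization, the filter, the variance model, replicate number as a block, the arrays used, the unlabelled division of replicates, erythroid signal and the choice of probe set. Deviations of same-numbered arrays from their group means correlated at -0.07 to 0.20. Not every pair was over 0.1, so the numbers were not taken as pairs. Promoters are from RefSeq, and no genome coordinates of probe sets are given.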

Additional observations from a re-analysis of the deposited data

Results flagged for a closer look

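Each member probe set was checked within the control and 100 nM groups for an array whose gap to its nearest neighbour was large for the group's range, by Dixon's 95% limit, which chance passes in about 1 of 20 groups. This held in 5 of 22 groups.

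Tgfbi in control replicate 6 read 13.72, and the next control read 13.13. Without that array Tgfbi remained called at both doses. Id2 on its second probe set, 1368870_at, read 10.16 in control replicate 6, and the next control read 10.89. Without it Id2 passed the test at 100 nM against control, as given above. Control replicate 6 thus stood nearest to the Insl3 arrays on both genes. It also stood apart on the mesothelium and epithelium markers, at 7.70 against 5.36 to 6.20 in the other controls, and the part of these cells was not tested.

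The second Tgfb2 probe set, 1388011_a_at, read 9.74 in control replicate 3, and the next control read 9.37. Tgfb1 read 4.17 in 100 nM replicate 2, and the next array read 4.44, a value that several arrays share. Tgfbr1 read 12.56 in 100 nM replicate 6, and the next array read 12.68.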

How the results depend on the processing

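Of 1475 gene changes under an alternative, for the members and the called pathway genes, 1201 kept their direction and side of the threshold, 235 lost the call, 15 gained it and 24 changed sign. The call of Tgfbi at both doses was lost within replicates 1, 2 and 6, and at 10 nM also within replicates 3, 4 and 5. The count of member genes called at 100 nM against control, 1 as reported, was 2 with trend and robust estimation, with the division of replicates as a term and with the erythroid covariate, 0 within replicates 1, 2 and 6, and 3 within replicates 3, 4 and 5. At 10 nM against control the count, 2 as reported, was 0 within replicates 1, 2 and 6, and 1 within replicates 3, 4 and 5 or with only the 2 groups compared. Taking the probe set with the lowest adjusted p made the count 3 at 10 nM against control and 1 between the doses, both through Tgfb2. Without 1 array it ran between 1 and 2 at 100 nM and at 10 nM against control. Calls over all tested probe sets at 100 nM were 10.9% as reported, 5.19% with all 17 arrays and 3.62% with the erythroid covariate. At 10 nM they were 10.6% as reported and 4.91% with no filter. Of the 76 pathway genes, 12 were called at each dose, and 5 at 100 nM with all 17 arrays or with the erythroid covariate, 7 at 10 nM with no filter, and 1 at each dose within replicates 1, 2 and 6. At 10 nM, 4 were called within replicates 3, 4 and 5. Between the doses 2 were called as reported, 4 with the division as a term, 1 with all 17 arrays, within replicates 3, 4 and 5 or with the erythroid covariate, and 0 with no filter, within replicates 1, 2 and 6 or with only the 2 groups compared.

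Of the changes that changed sign, 1 was called as reported: Ltbp4 at 10 nM against control, 0.49, which was -0.38 with all 17 arrays. Normalizing again by quantiles gave 0.0080 for Tgfbr3 at 100 nM against control, and -0.0018 for Tgfbr1 and 0.0186 for Tgfbr3 at 10 nM. Replicates 1, 2 and 6 gave -0.035 for Tgfb1 at 100 nM, 0.13 for Id1 at 10 nM and -0.090 for Tgfb2 between the doses. Replicates 3, 4 and 5 gave 0.034 for Tgfb3 at 10 nM and 0.019 for Tgfb1 between the doses. The erythroid covariate gave 0.087 for Tgfb2 at 100 nM and 0.0089 for Id1 at 10 nM. All 17 arrays gave -0.016 for Tgfbr1 at 10 nM, and 0.086 for Tgfb3 and 0.10 for Tgfbi between the doses. The replicate block left the counts of member genes called at 1 and 2 against control, and gave -0.020 for Tgfbr1 and 0.0058 for Id1 at 10 nM. Without 1 array, changes at 10 nM against control ran between -0.11 and 0.0021 for Tgfb3, -0.019 and 0.068 for Tgfbr1, -0.10 and 0.049 for Id1, and -0.081 and 0.044 for Id3, and between the doses Tgfb2 ran between -0.015 and 0.092. The cause was not tested for any of these.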

Other observations

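The 2 arrays at 10 nM that the submitters set aside, replicates 4 and 5, are labelled with cRNA yields of 25.66 and 33.68 µg, against 48.6 to 64.16 µg for the 3 kept arrays at 10 nM. Tgfbi read 13.70 and 13.43 on them, below all kept Insl3 arrays and below control replicate 6, at 13.72. The second Tgfb2 probe set, 1388011_a_at, read 7.13 and 7.74, below all 15 kept arrays, and Id2 on 1375532_at read 10.55 and 10.77. Tgfb3 read 9.57 and 8.73, Id1 read 10.05 and 10.22, and Id3 read 12.00 and 11.94, lower than any kept array on Id3.

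The single-gene probe sets whose values ran closest to those of Tgfbi over the 15 kept arrays were those of Slc39a6, Hacd3, Pnoc, Sncaip and Sphkap, with Pearson's r of 0.966, 0.961, 0.952, 0.950 and 0.948. All 5 had higher means at both doses than in control, from 0.41 for Slc39a6 to 5.75 for Pnoc at 100 nM on the log2 scale, so these values of r carry the difference between groups. With each group's mean taken out, the closest were F2r, Cul7, Aldh1a2, Nherf2 and Hadh, with r of 0.917, 0.885, 0.874, 0.870 and 0.863. The arrays share a laboratory and a normalization, and no p is attached to these values.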
